A study of Homo sapiens with 17 samples.

Results

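The nuclear genes of oxidative phosphorylation were examined in CUT&Tag libraries of H1 cells. Members were the RefSeq protein-coding nuclear genes whose symbols begin with NDUF, SDHA to SDHD, UQCR, COX4 to COX8 or ATP5, which gave 100 of 20037 genes. They comprised 7 core subunits, 31 accessory subunits and 8 assembly factors of complex I, 4 subunits and 4 assembly factors of complex II, 9 genes of complex III, 17 of complex IV and 20 of complex V. NDUFA4 and NDUFA4L2 stand in the RefSeq table under newer symbols (COXFA4 and COXFA4L2), so the symbol rule did not take them.

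The respiratory chain passes electrons from NADH (complex I) and succinate (complex II) through complex III to oxygen at complex IV, and complex V uses the resulting proton gradient to make ATP. Most of the subunits are encoded in the nucleus and the remainder in mitochondrial DNA. The nuclear genes are used in nearly every cell, apart from isoforms reserved for muscle, lung or germ cells, and their promoters are known targets of NRF1, the ETS factor GABP (GABPA with GABPB1) and YY1.

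CUT&Tag uses an antibody to direct the Tn5 transposase to cut and tag DNA beside a chromatin protein or mark. H1 is an established human pluripotent stem cell line. H3K4me1 and H3K27ac, marks of enhancers and of active promoters and enhancers, were each profiled in cells with shHNRNPU#1 (2 repeats), shHNRNPU#2 (2 repeats) and the luciferase control shLUC (2 repeats). HNRNPU, a nuclear RNA-binding protein, was profiled in untransfected cells (2 repeats), and POLIIS2P, an antibody name that the labels do not spell out, in shHNRNPU#1 (1 library) and shLUC cells (2 repeats). The shRNAs were delivered by virus and cells were selected with puromycin, so the untransfected cells differ from the others in both. Nothing in the labels says whether repeats were separate cultures, and the p-values below measure the spread between these libraries.

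Each library was deposited as a list of peak summits with a significance score. A gene's value was the percentile, within its own list, of the highest-scoring summit in the gene and 1000 bp on each side, and 0 where no summit lay there. The percentile is a rank among the summits of one list and not an amount of protein or mark. The lists held 34649 to 214333 summits, and read depth was unknown. In 4 shLUC histone libraries the antibody in the sample title is the opposite of the antibody in the names of the deposited peaks. Their lists had 62449 and 90914 summits where the titles say H3K4me1, against 147145 to 214333 in the H3K4me1 shHNRNPU libraries. Where the titles say H3K27ac they had 179137 and 181357, against 40487 to 85142 in the H3K27ac shHNRNPU libraries. Comparisons with shLUC therefore carry a value for each reading, as labelled (by title) and exchanged (by peak name). A further comparison, called joined here, took the higher of the H3K4me1 and H3K27ac percentiles of the same shRNA and repeat and does not depend on the names.

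The knockdown itself could not be checked. At the HNRNPU gene POLIIS2P stood at percentile 99.7 in the shHNRNPU#1 library and 99.5 in both shLUC libraries, and no list measures HNRNPU RNA or protein in these cells. Of 9 pluripotency markers present in the table under their listed symbols, 8 had an H3K27ac summit in every shHNRNPU library. Of 7 markers of other cell types, none had, and ALB and HBB had no summit in any of the 17 lists. H3K4me1 was in every shHNRNPU library at 8 pluripotency markers, but also at 4 markers of other cells (MYH6, GFAP, CD3E and PTPRC). GFAP had POLIIS2P at 74.3 to 81.1 in all 3 libraries, and PTPRC had H3K27ac at 44.1 and 75.25 with shHNRNPU#2. POU5F1 had no HNRNPU or POLIIS2P summit.

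Promoter sequences are shown for 6 members on which the results turn: the members with the highest H3K27ac (UQCRC2, NDUFB1), the member near the top for both histone marks (UQCRC1), the member with the highest HNRNPU (NDUFA11), and the ubiquitous and muscle isoforms of one complex IV subunit (COX6A1, COX6A2). Each run holds the 250 bases before the RefSeq transcription start (GRCh38.p14), 5′ to 3′ on the strand of the gene, and no annotated gene overlaps these bases. Capitals mark matches, on either strand, to GCGCANGCG (NRF1), CCGGAAG (ETS factors such as GABP), AANATGGCG (YY1) or GGGCGG (SP1).
UQCRC2: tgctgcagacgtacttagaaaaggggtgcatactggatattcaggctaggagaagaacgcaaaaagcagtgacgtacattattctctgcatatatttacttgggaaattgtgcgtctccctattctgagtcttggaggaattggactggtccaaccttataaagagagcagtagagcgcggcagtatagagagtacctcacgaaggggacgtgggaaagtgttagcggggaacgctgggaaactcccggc
NDUFB1: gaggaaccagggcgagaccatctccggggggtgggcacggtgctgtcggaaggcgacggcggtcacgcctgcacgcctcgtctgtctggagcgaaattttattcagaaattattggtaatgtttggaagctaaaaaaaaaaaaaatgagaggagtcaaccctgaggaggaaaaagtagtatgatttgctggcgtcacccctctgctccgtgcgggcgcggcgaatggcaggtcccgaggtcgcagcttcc
UQCRC1: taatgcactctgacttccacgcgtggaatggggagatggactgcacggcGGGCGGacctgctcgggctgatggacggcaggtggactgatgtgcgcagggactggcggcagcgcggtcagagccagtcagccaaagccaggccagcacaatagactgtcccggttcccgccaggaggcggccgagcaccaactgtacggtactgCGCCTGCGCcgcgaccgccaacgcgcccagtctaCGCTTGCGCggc
NDUFA11: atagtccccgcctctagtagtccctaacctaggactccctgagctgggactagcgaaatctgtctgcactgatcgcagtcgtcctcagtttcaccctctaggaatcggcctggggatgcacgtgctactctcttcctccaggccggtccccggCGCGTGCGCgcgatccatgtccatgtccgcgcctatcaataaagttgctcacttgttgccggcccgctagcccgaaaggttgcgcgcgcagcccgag
COX6A1: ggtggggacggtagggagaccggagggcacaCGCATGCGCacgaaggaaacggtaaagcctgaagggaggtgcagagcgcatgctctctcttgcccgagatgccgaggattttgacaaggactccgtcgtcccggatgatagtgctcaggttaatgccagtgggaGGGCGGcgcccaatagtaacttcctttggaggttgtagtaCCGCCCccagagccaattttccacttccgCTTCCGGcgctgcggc
COX6A2: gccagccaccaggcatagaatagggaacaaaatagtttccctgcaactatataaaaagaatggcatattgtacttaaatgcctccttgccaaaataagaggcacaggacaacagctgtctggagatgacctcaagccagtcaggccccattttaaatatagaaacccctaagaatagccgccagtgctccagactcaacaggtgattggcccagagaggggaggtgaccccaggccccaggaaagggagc

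UQCRC2 lies on the plus strand and its printed bases are chr16:21953111-21953360. NDUFB1 lies on the minus strand (chr14:92121707-92121956), as do UQCRC1 (chr3:48609647-48609896), NDUFA11 (chr19:5903791-5904040) and COX6A2 (chr16:31428361-31428610), and COX6A1 lies on the plus strand (chr12:120437863-120438112). The UQCRC1 promoter held 2 NRF1 matches, 46 and 12 bases before the start, and the NDUFA11 promoter 1. The HNRNPU summits that rank NDUFA11 highest lay further upstream and not in its printed bases. COX6A1 held an NRF1 match, 2 SP1 matches and an ETS match. No match to the 4 motifs lay in the printed bases of UQCRC2, NDUFB1 or COX6A2.

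Among all members, 82 had at least 1 RefSeq promoter in the table (100 promoters of 300 bases, from 250 before to 50 after the start). The NRF1 letters were present in 27% of these promoters, against 9.64% of the 22199 promoters of all protein-coding genes. The YY1 letters were present in 22.0% against 4.24% and the ETS letters in 27% against 12.8%. The SP1 letters differed little, at 63.0% against 56.3%. Of the 82 genes, 52 (63.4%) held at least 1 of the NRF1, ETS and YY1 motifs, against 29.6% of 15843 genes. The promoters of ATP5PF and COX6A1 held all 3. The base composition was close, with a median GC content of 61.0% against 62.3% and a median of 22 against 21 CpG. Each motif was counted on its own and overlapping matches were not removed. Medians of the mean percentiles of members with and without a motif are given as a description. For HNRNPU they were 75.3 with the NRF1 letters (27 genes) and 79.4 without (55 genes), and for H3K4me1 68.9 and 52.0. Members with the SP1 letters (53 genes) had the higher median in all 4 antibodies, at 81.5 against 69.5 for HNRNPU, 90.2 against 84.5 for POLIIS2P, 66.3 against 47.7 for H3K4me1 and 76.2 against 67.7 for H3K27ac. A match describes letters in the window and was not tested as a binding site.

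HNRNPU and POLIIS2P summits were present at most members. HNRNPU had a summit in both libraries at 80 of 100 members, against 63.7% of all genes, and POLIIS2P in all 3 libraries at 88 members, against 68.3%. The median over members of the mean percentile was 76.5 for HNRNPU (all genes 55.4) and 86.3 for POLIIS2P (all genes 74.6). The H3K27ac shHNRNPU libraries gave 65 members with a summit in all 4 libraries, against 52.0% of all genes, and a median of 73.7 against 50.7. H3K4me1 went the other way. A summit in all 4 shHNRNPU libraries was found at 72 members, against 74.2% of all genes, and the median was 57.7 against 70.6. Members are shorter than other genes (median 10552 bp against 24115 bp), and the part of length in these shares was not tested. Within 1000 bp of a start, 82 members with a known start gave 80.5% for HNRNPU, 80.5% for POLIIS2P, 61.0% for H3K4me1 and 56.1% for H3K27ac, against 52.1%, 53.8%, 46.7% and 28.4% of all genes. The 77 mitochondrial ribosomal protein genes, another nuclear set for a mitochondrial machine, had medians of 74.1, 89.7, 56.5 and 78.7 for HNRNPU, POLIIS2P, H3K4me1 and H3K27ac. No difference between these gene sets was tested.

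**Figure D1:**
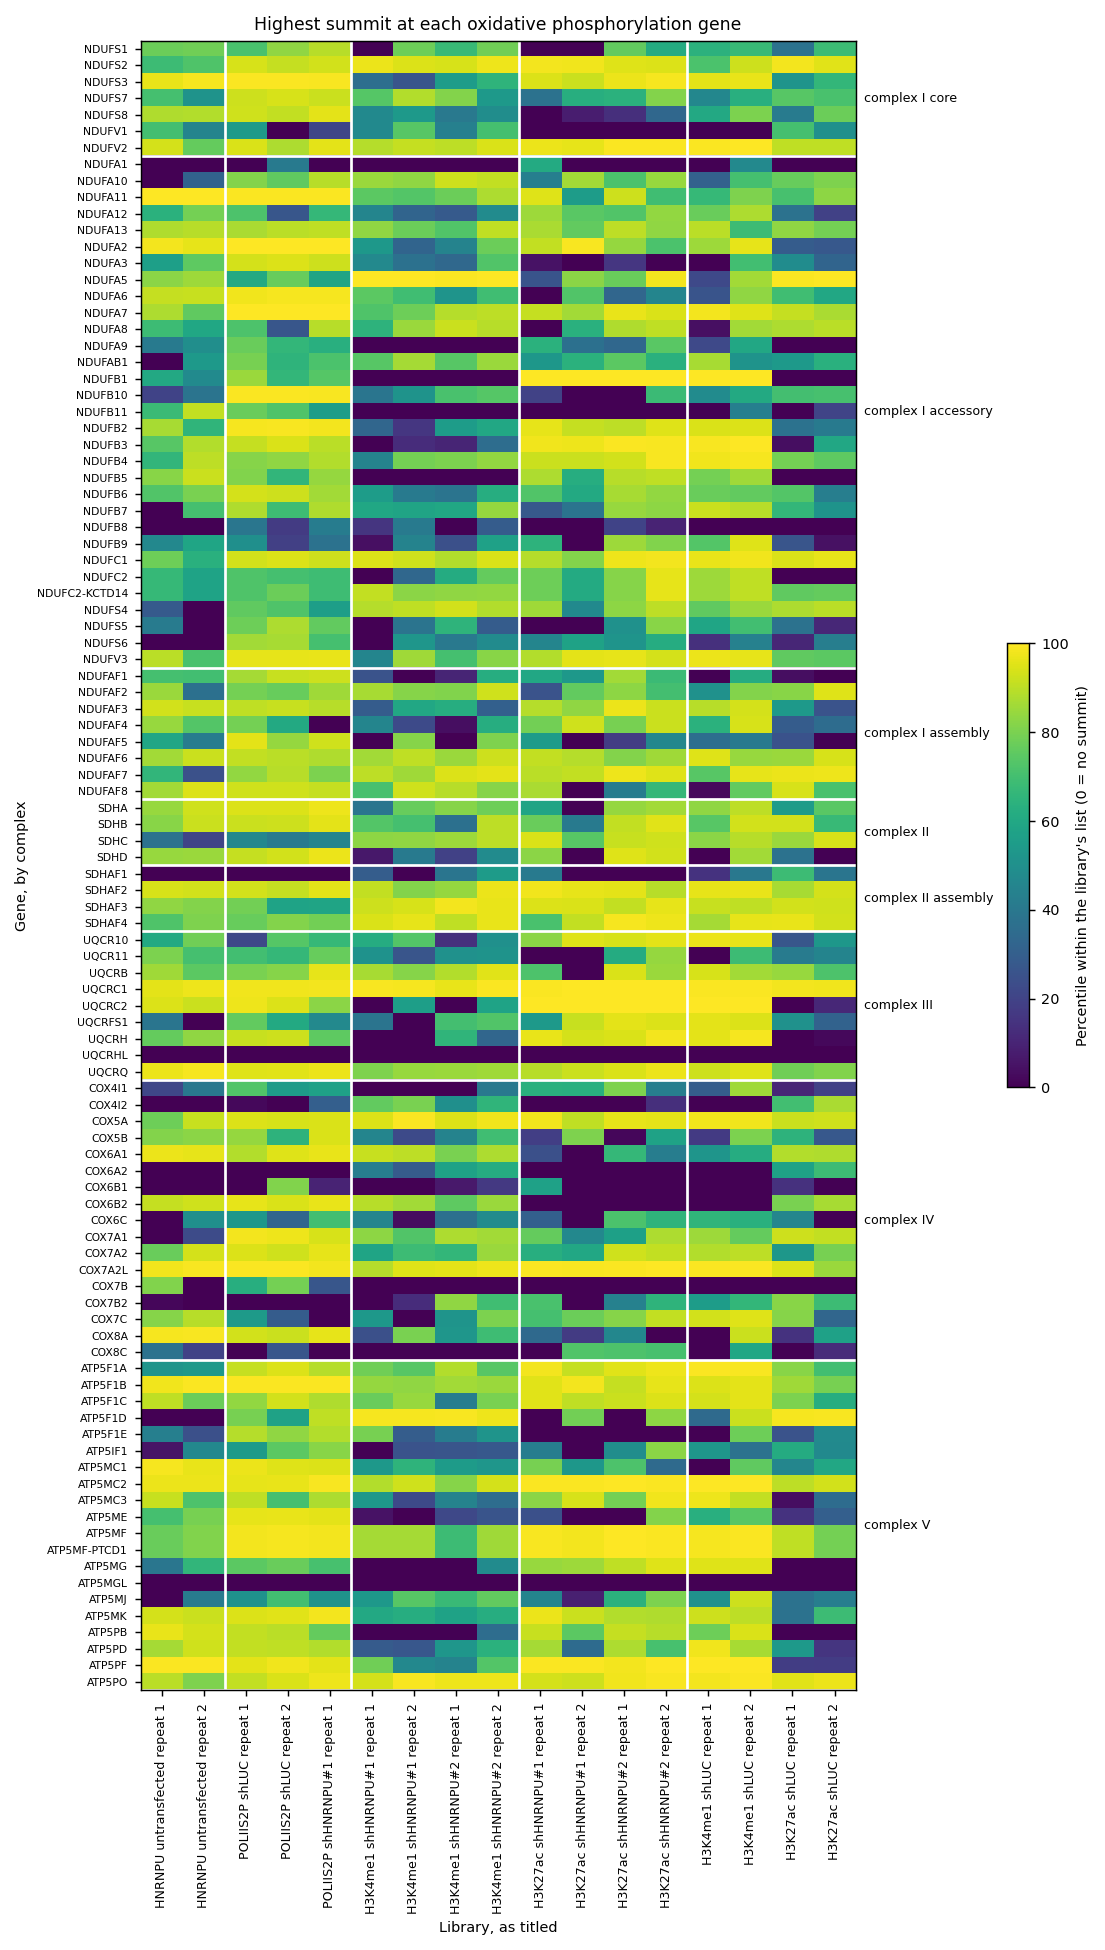
Percentile of the highest summit (colour, 0 where there is none) at the 100 members, in rows by complex, in each of the 17 libraries, in columns as titled. The rows of NDUFB1 and NDUFB5 are at 0 (dark) in the H3K4me1 shHNRNPU columns and in those titled H3K27ac shLUC, and at 62.2 or above (bright) in the H3K27ac shHNRNPU columns and in those titled H3K4me1 shLUC.

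The highest summits lay close to the transcription start. For HNRNPU, 73.6% of the members' highest summits (144 summits at 82 genes) were within 250 bp of a start, against 51.3% for all genes. For H3K27ac it was 67.5% against 31.7%, for POLIIS2P 64.2% against 39.9%, and for H3K4me1 51.6% against 24.9%. The median distance of the H3K27ac summit was 150.0 bp at members and 2875 bp at all genes. Windows span the gene, so shorter genes leave less room for distant summits. Members are shorter (median 10552 bp against 24115 bp), and the part of length in these distances was not tested. At NDUFB1 the 4 H3K27ac summits of shHNRNPU libraries lay 47 to 52 bases upstream of the start, and at UQCRC1 all 4 H3K4me1 and all 4 H3K27ac summits lay 13 to 99 bases upstream, which is inside the sequences printed above. COX6A2 had its H3K4me1 summits 142 to 146 bases downstream of the start.

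**Figure D2:**
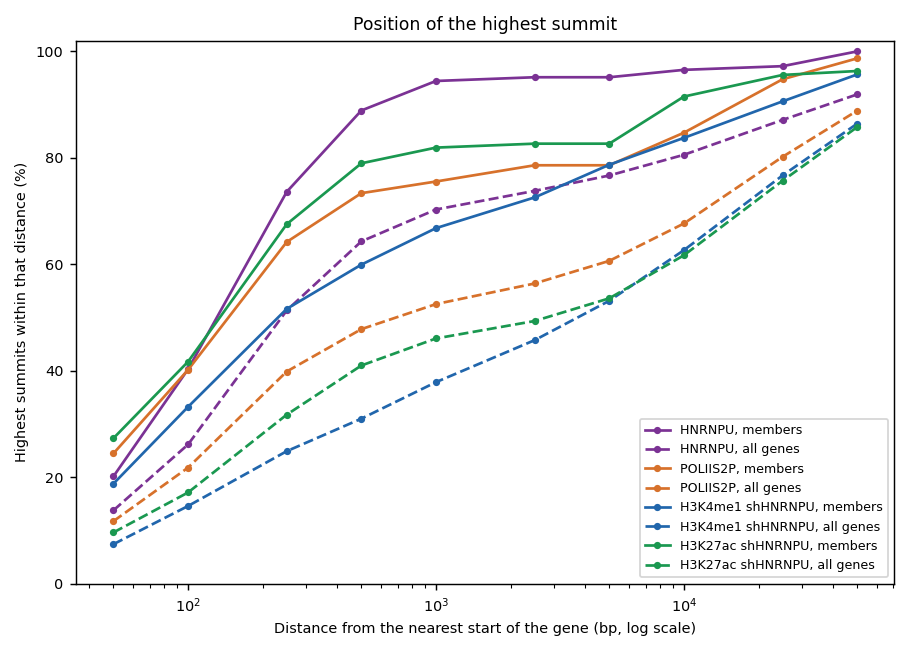
Share of highest summits (percent, vertical axis) within a given distance of the nearest RefSeq start of the gene (bp, log scale), for each antibody in members (solid lines, 82 genes) and in all genes with a start (dashed lines). At 250 bp the members' lines lie between 51.6% and 73.6% and those of all genes between 24.9% and 51.3%. Members are shorter genes, and the part of length was not tested.

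In complex I the core subunits carry the iron-sulfur clusters and flavin, and all 7 had HNRNPU in both libraries, with a median mean percentile of 77.9. NDUFS3 was the highest of them, at percentiles 96.6 and 98.7 for HNRNPU and 98.8 to 99.5 for POLIIS2P. KBTBD4, which overlaps its window, had the same values in all 17 lists, so these summits cannot be assigned to one of the genes. NDUFV1, which binds NADH, was low for H3K27ac and POLIIS2P. It had no H3K27ac summit in any shHNRNPU library, and POLIIS2P percentiles of 21.0 (shHNRNPU#1), 54.4 and 0 (shLUC), beside HNRNPU at 70.04 and 45.2. The accessory subunits ranged from no HNRNPU summit at 3 of 31 genes to the highest value of any member, NDUFA11, at 99.8 and 99.9. NDUFA2 and NDUFA7 had the highest POLIIS2P, at 99.7, 99.8 and 99.8 and at 99.8, 99.8 and 99.6 in the shHNRNPU#1 library and the shLUC repeats. The window of NDUFA2 overlaps IK, and both genes had the same values in all 17 lists, so these summits cannot be assigned to one of the genes. The 8 NDUFAF assembly factors, which help to build the complex, all had HNRNPU in both libraries.

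Complex II contains succinate dehydrogenase, which also serves the citric acid cycle. SDHA, its flavoprotein, had HNRNPU at 84.6 and 92.7 and POLIIS2P at 97.5, 94.6 and 94.8. SDHB, the iron-sulfur subunit, was similar, at 82.4 and 91.9 for HNRNPU and 91.9 to 95.7 for POLIIS2P. The membrane anchors differed from each other. SDHD had HNRNPU at 84.4 and 85.0 and SDHC at 37.5 and 20.4, and POLIIS2P was 91.2 to 97.1 at SDHD and 40.6 to 46.1 at SDHC. H3K4me1 was in the opposite order, with means of 85.4 at SDHC and 28.7 at SDHD. For H3K27ac the order varied among libraries, with SDHC at 94.3, 73.9, 91.4 and 92.8 and SDHD at 82.8, 0, 95.0 and 93.1. The window of SDHD overlaps TIMM8B, with the same values in all 17 lists. That of SDHA overlaps CCDC127, with the same value in 13 of 17 lists. These summits cannot be assigned to one of the genes.

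Complex III genes were high for H3K27ac, with a median of 92.0. UQCRC1 and UQCRC2, the core proteins, reached means of 99.7 and 99.99. UQCRHL, a close relative of the hinge protein gene UQCRH, had no summit in any of the 17 lists, whereas UQCRH had HNRNPU at 76.3 and 83.5 and H3K27ac at 93.4 to 98.3. Reads from near-identical copies can be lost or split in mapping, and how such reads were treated is not given in the sources used here. Among complex V genes, ATP5PF, a stalk subunit, had the second highest HNRNPU of all members, at 99.3 in both libraries. Its window overlaps GABPA, and the values of both genes were identical in all 17 lists. ATP5MGL was the other member without any summit. ATP5MF and the read-through gene ATP5MF-PTCD1 had the same values throughout, and NDUFC2 and its read-through NDUFC2-KCTD14 shared HNRNPU at 66.9 and 58.2 but differed in H3K4me1, with means of 42.8 and 85.1. In all, 55 of 100 members shared their window with another protein-coding gene, against 38.9% of all genes. Shared summits cannot be assigned to one gene. Such lists numbered 8 for UQCRH (with LRRC41), 9 for ATP5PB (WDR77) and 11 for NDUFB3 (HYCC2). They numbered 8 for COX4I1 (EMC8), 11 for UQCR10 (ZMAT5), and 6 and 5 for NDUFA7 (CD320 and RPS28). Further named members share summits in the same way.

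Complex IV had the lowest median of the complexes for HNRNPU (40.6) and H3K27ac (41.8), and it is where the tissue-restricted isoforms lie. COX4I2, the lung isoform of the subunit COX4, had no HNRNPU summit, H3K4me1 at 76.1, 79.8, 49.7 and 65.5, and H3K27ac in only 1 of 4 shHNRNPU libraries (13.7). COX4I1, the ubiquitous isoform, had HNRNPU at 21.4 and 40.1, H3K4me1 in 1 of 4 libraries (40.5) and H3K27ac at 63.6, 63.0, 80.7 and 42.8. COX6A2, the muscle isoform, had neither HNRNPU nor POLIIS2P nor H3K27ac, and H3K4me1 at 42.5, 28.9, 57.7 and 61.7. COX6A1, its ubiquitous partner, had HNRNPU at 97.0 and 96.3 and POLIIS2P at 88.5 to 96.8. The pairs did not all follow this order. COX6B2, described as a testis isoform, had HNRNPU at 91.3 and 92.8 and POLIIS2P at 94.2 to 96.6, while the ubiquitous COX6B1 had no HNRNPU summit and POLIIS2P at 10.1, 0 and 81.0. The COX6B2 window also overlaps GARIN5B, which had the same value in all 11 lists where COX6B2 had a summit. These summits thus cannot be assigned to one of the genes. COX7A1, the muscle isoform of COX7A2, had POLIIS2P at 94.1 to 98.3, close to COX7A2 at 92.6 to 96.4, and HNRNPU at 0 and 22.7 against 77.0 and 93.4. COX7B2 had HNRNPU at 1.9 and 0 and no POLIIS2P. COX8C had HNRNPU at 37.7 and 19.7 against 98.6 and 98.8 for the ubiquitous COX8A.

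The 3 X-linked members, NDUFB11, NDUFA1 and COX7B, had no H3K4me1 summit in any of the 4 shHNRNPU libraries. Only NDUFA1 had an H3K27ac summit there, in 1 library. Of all 848 X-linked genes, 280 had no H3K4me1 summit in these libraries and 405 no H3K27ac summit. Their median was 27.1 for H3K4me1, against 71.9 for autosomal genes, and 2.55 for H3K27ac, against 53.5. COX7B, a small ubiquitous complex IV subunit, had HNRNPU at 81.2 in one repeat and none in the other.

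**Figure D3:**
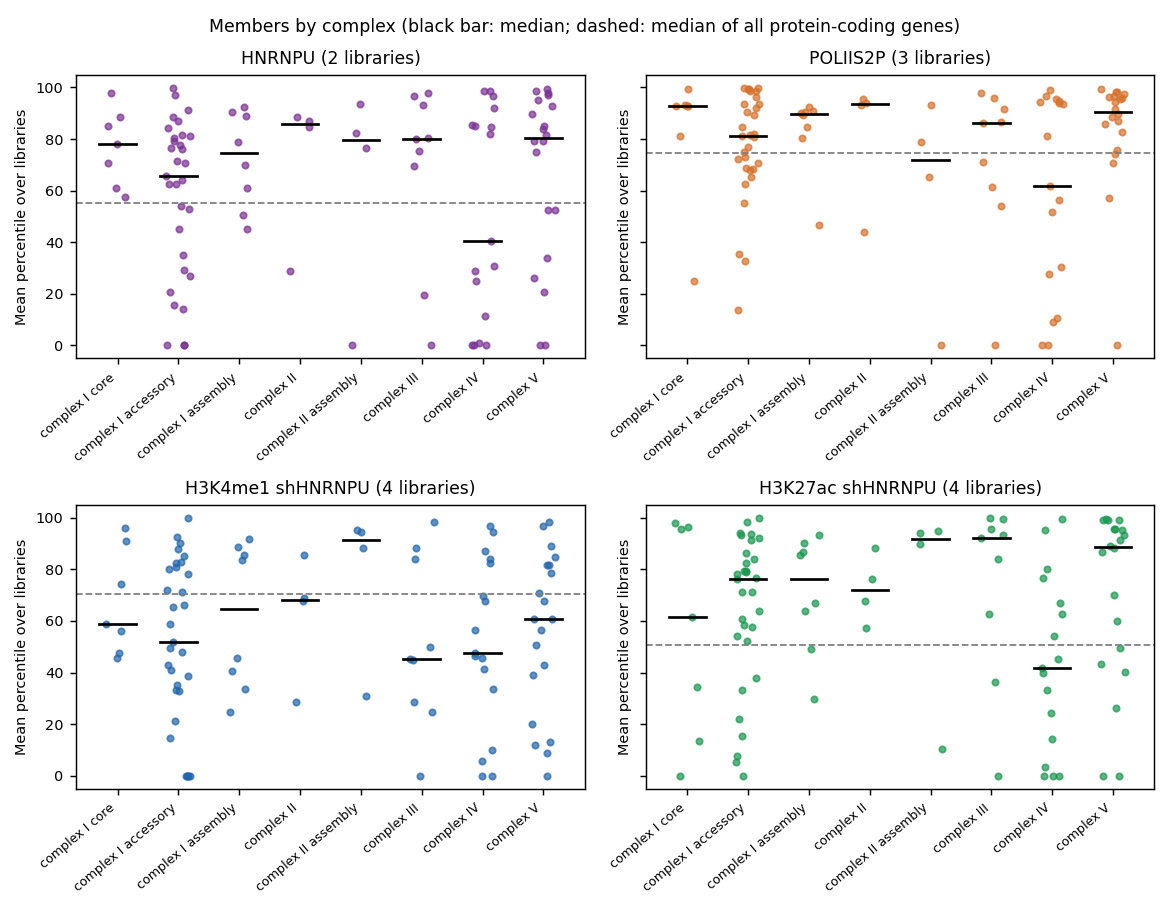
Mean percentile over the libraries of each antibody (vertical axis) for every member (points) by complex, with the median of each complex (black bars) and of all protein-coding genes (dashed lines). Complex IV has the lowest median for HNRNPU, POLIIS2P and H3K27ac, at 40.6, 61.6 and 41.8.

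HNRNPU and POLIIS2P were correlated across genes. Spearman's correlation of the mean percentiles was 0.68 over the 100 members and 0.73 over all 20037 genes, and that of HNRNPU with H3K27ac was 0.48 and 0.68. Genes are not independent replicates, and the lists share open chromatin, gene length and neighbours. Of the members with HNRNPU in both repeats, COX7C was furthest above its POLIIS2P, with HNRNPU at 81.8 and 89.2 and POLIIS2P at 0, 54.5 and 29.0, followed by NDUFV1 and NDUFAF4. In the other direction NDUFB10 had HNRNPU at 20.3 and 38.5 beside POLIIS2P at 99.2, 99.5 and 99.5, followed by NDUFS5 and ATP5F1E. The window of NDUFB10 reaches RPS2, a highly used ribosomal protein gene, which had the same value in 5 of 17 lists.

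The histone marks themselves were compared in the 8 shHNRNPU libraries, whose names do not conflict. This comparison was added after the values were seen. In limma across all genes, 34 of 95 members tested were higher in H3K27ac than in H3K4me1 and 8 were lower (Benjamini-Hochberg adjusted p under 0.05). The background was 52.6% of 17531 genes, of which 15.3% of genes were higher and 37.3% lower, so the share of members called was below the background (42 of 95), and most members called were higher where most genes called were lower. The median difference, H3K27ac minus H3K4me1, was 5.07 percentile points at members and -10.9 at all genes. The direction depends on how the lists are cut. With only summits scoring at least 10, of which the H3K27ac lists held 3867 to 12363 and the H3K4me1 lists 61717 to 107167, 13 members were higher and 29 lower, beside 916 and 8873 of all genes. With the 20000 highest-scoring summits of each list, 46 members were higher and 2 lower, beside 4007 and 1996 of all genes. Under both cuts members and all genes thus leaned the same way.

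NDUFB1, an accessory subunit, had H3K27ac at 99.92, 99.80, 99.93 and 99.95 and no H3K4me1 summit in any of the 4 libraries, a difference of 99.9 ± 5.26 (SE). NDUFB3, an accessory subunit of the same complex I arm, had H3K27ac at 97.3 to 99.4 and H3K4me1 at 0 to 35.8. NDUFB5 had H3K27ac at 62.2 to 90.5 and no H3K4me1 summit. NDUFB1 and NDUFB5 thus entered the fit only through H3K27ac. COX6B2, COX6A2, NDUFV1 and ATP5F1E, given below, entered it only through H3K4me1. Their 0s stand for no summit and have no spread, so a call for such a gene restates that absence. NDUFB5 had the same value as the adjoining MRPL47 in all 17 lists, and NDUFB1 the same as CPSF2 in 14. ATP5PB and ATP5MG, subunits of complex V, had differences of 77.8 ± 9.38 and 76.9 ± 10.9 (SE). UQCRC2 had H3K27ac at 99.98 to 99.99 and H3K4me1 at 0, 56.2, 0 and 58.0. By role, 10 of 19 complex V genes, 5 of 8 complex III genes and 11 of 29 complex I accessory genes were higher in H3K27ac, against 15.3% of all genes. Lower were 1, 0 and 1 of these, against 37.3%. Complex IV had 3 higher and 4 lower of 16, the complex I core 2 and 2 of 7, and complex I assembly 3 and 0 of 8. Complex II subunits and assembly factors had 0 calls. ATP5MF and ATP5MF-PTCD1, with the same values throughout, entered complex V as separate genes.

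The 8 members higher in H3K4me1 were COX6B2, COX4I2, NDUFV1, COX6A1, ATP5F1E, COX6A2, NDUFA3 and NDUFS8, 4 of them in complex IV. COX6B2, whose summits are shared with GARIN5B, had H3K4me1 at 89.4, 86.1, 75.4 and 85.0 and no H3K27ac summit, a difference of -84.0 ± 5.22 (SE). COX4I2 differed by -64.4 ± 6.25 and COX6A2 by -47.7 ± 5.38 (SE). COX6A1 was called in the same direction, by -53.9 ± 9.28 (SE), so the ubiquitous and the muscle isoform did not differ in the sign of this contrast. NDUFA5 and ATP5F1D had the highest H3K4me1, at 99.4 to 99.9 and 97.4 to 99.1, but their H3K27ac varied from 26.0 to 98.4 and from 0 to 83.0 and neither was called (limma adjusted p = 0.0912 and 0.0775). The NDUFA5 window overlaps ASB15. UQCRC1 was high for both marks, with a difference of 1.22 and a 95% interval of -0.62 to 3.06.

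**Figure D4:**
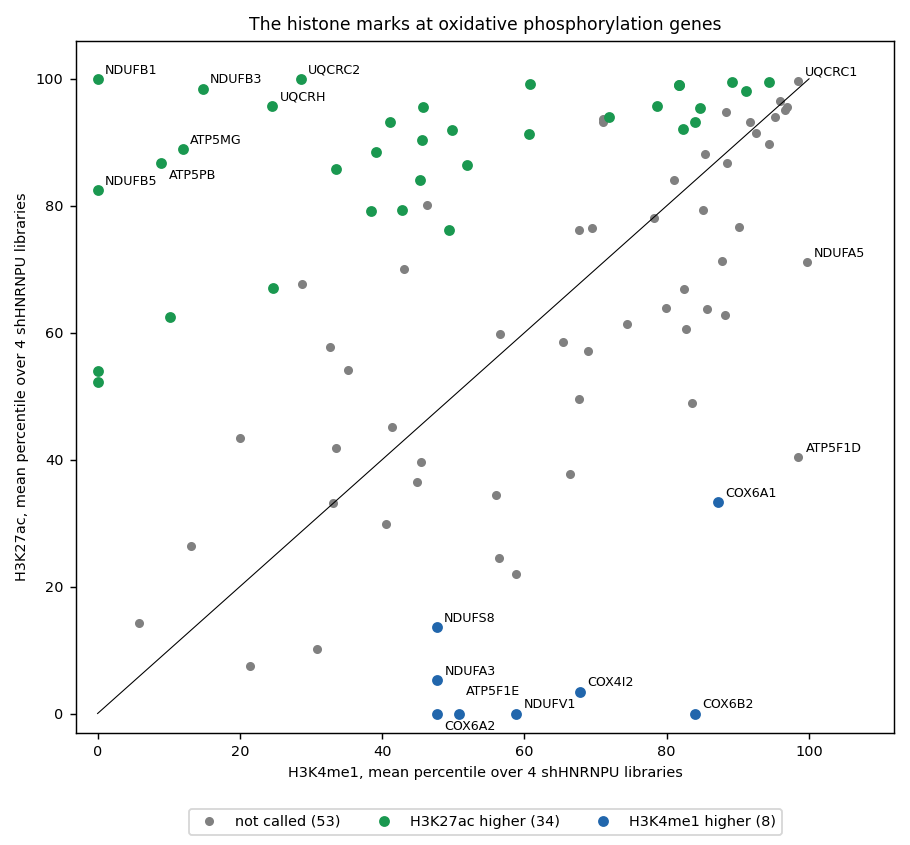
Mean H3K27ac percentile (vertical axis) against mean H3K4me1 percentile (horizontal axis) over the 4 shHNRNPU libraries of each mark for the 95 members tested. The 34 members called higher in H3K27ac (green) reach the upper left corner at NDUFB1, and the 8 called higher in H3K4me1 (blue) include COX6B2, COX4I2, COX6A2 and NDUFV1 along the bottom; the line marks equal values.

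Other genes of the pathway, which carry other symbols (cytochrome c, CYC1 and assembly factors), were taken from a list of 31. In the same comparison 8 were higher in H3K27ac and 6 lower. LRPPRC, a mitochondrial mRNA-stability factor, had mean H3K27ac of 99.96 and H3K4me1 of 81.2, whereas CYC1, the cytochrome c1 of complex III, had H3K4me1 of 76.5 and no H3K27ac summit. Of 9 regulators, 4 were higher and 4 lower. TFAM, which packages mitochondrial DNA, was higher by 65.3 ± 9.48, GABPA by 38.5 ± 9.29, and NRF1 differed by -21.1 ± 2.85 (SE, limma adjusted p of 0.00233, 0.0149 and 0.00179).

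The question of what loss of HNRNPU does to these genes depends on the names of the shLUC libraries. As labelled, 5 of 94 members were higher and 25 lower in H3K4me1 after shHNRNPU, against a background of 42.6% of 17454 genes called (27.8% higher, 14.8% lower). In H3K27ac 31 of 95 were higher and 8 lower, against 38.0% of 17289 genes (13.0% higher, 25% lower). In H3K4me1 the 30 calls were a smaller share than the background, in H3K27ac the 39 calls were near it, and in both marks most members called lay in the other direction from most genes called. This contrast in direction held when each shHNRNPU library was left out in turn, but depended on which shLUC libraries were kept. Leaving out a shLUC library leaves 1 control. Without the second library labelled H3K4me1 shLUC, 14 members were higher and 12 lower in H3K4me1 (all genes 6483 and 1275), and without the first 8 and 12 (all genes 4916 and 1392). Without the first or second library labelled H3K27ac shLUC, members were 22 higher and 1 lower or 20 and 1 in H3K27ac, and all genes also mostly higher, at 1509 and 454 or 1470 and 417. The difference is shHNRNPU minus shLUC, and its median was -9.01 at members and 5.28 at all genes in H3K4me1, and 6.83 and -11.2 in H3K27ac. With summits scoring at least 10 the members' split became 15 higher and 14 lower in H3K4me1 (all genes 6008 and 1072) and 9 higher and 21 lower in H3K27ac (all genes 788 and 8023). With the 20000 highest-scoring summits it was 1 and 37 in H3K4me1 (all genes 1799 and 3914) and 35 and 1 in H3K27ac (all genes 3178 and 1528).

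The values behind the calls as labelled are the following. NDUFB1 had no H3K4me1 summit in the 4 shHNRNPU libraries and stood at 99.86 and 99.94 in the libraries labelled H3K4me1 shLUC. In H3K27ac it stood at 99.80 to 99.95 in shHNRNPU and had no summit in the libraries labelled H3K27ac shLUC. It thus differed by -99.9 ± 6.35 in H3K4me1 and by 99.9 ± 7.09 in H3K27ac (SE). A gene without a summit in one group entered these fits only through the other group, and its call restates that absence. NDUFB3, ATP5MG, NDUFB5 and ATP5PB followed in H3K4me1, with differences of -84.6 to -77.1, and UQCRH, UQCRC2, ATP5MG and ATP5PB in H3K27ac, with 94.7 to 86.8. The complex IV isoforms made up 4 of the 5 members higher in H3K4me1. COX6B2, whose summits are shared with GARIN5B, was higher by 84.0 ± 7.27, COX4I2 by 67.8 ± 7.78 and COX6A2 by 47.7 ± 7.40 (SE). COX6A1 was higher by 30.2 ± 6.42 (SE, limma adjusted p = 0.0186), and NDUFV1 was the remaining one at 58.9 ± 12.0 (SE). Apart from COX6A1, these genes had no summit in either library labelled H3K4me1 shLUC. The same 5 genes were lower in H3K27ac, from COX6B2 at -83.5 ± 4.91 to COX6A1 at -54.9 ± 11.9 (SE). Of the other pathway list, 5 of 31 were higher and 4 lower in H3K4me1, and 8 and 4 in H3K27ac. Of the 9 regulators, 2 were higher and 3 lower in H3K4me1, and 4 and 2 in H3K27ac. In H3K4me1 the count fell from 30 to 19 without the first shHNRNPU#2 repeat, where all genes also fell, to 2890 higher and 1432 lower. In H3K27ac it fell most without a shLUC repeat, which leaves 1 control.

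With the antibody names exchanged, none of these calls was made. In H3K4me1 limma called 0 of 89 members and 0.0% of 17162 genes, with 9 members and 1279 genes at an unadjusted p under 0.05. In H3K27ac it called 0 of 90 members and 0.0% of 15691 genes, with 6 members and 1035 genes unadjusted. Counts of 0 here do not show that nothing changed. In H3K27ac the fit did not recover simulated shifts at the spread of the real libraries. NDUFB1 then had H3K27ac of 99.9 in both conditions, with a difference of 0.00 and a 95% interval of -1.35 to 1.35, and no H3K4me1 summit in any of the 6 libraries. UQCRC2 had an interval of -1.32 to 1.33 in H3K27ac. Both genes lie at the upper end of the percentile scale, so these intervals do not show an unchanged mark. The largest differences were NDUFC2 and ATP5PF in H3K4me1, higher by 42.8 ± 12.6 and 42.8 ± 13.8, and ATP5IF1 and COX7B2, at -34.6 ± 11.4 and -34.1 ± 10.9 (SE, limma adjusted p 0.623 to 0.649). In H3K27ac they were NDUFAF1 and NDUFS6, at 36.1 ± 21.8 and 25.2 ± 16.5, and NDUFS8 and ATP5ME, at -56.8 ± 14.6 and -42.0 ± 24.9 (SE, limma adjusted p 0.734 to 0.749). NDUFS8 had H3K27ac at 0, 7.9, 13.4 and 33.2 in shHNRNPU and 60.3 and 80.5 in the other group, and was not called.

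**Figure D5:**
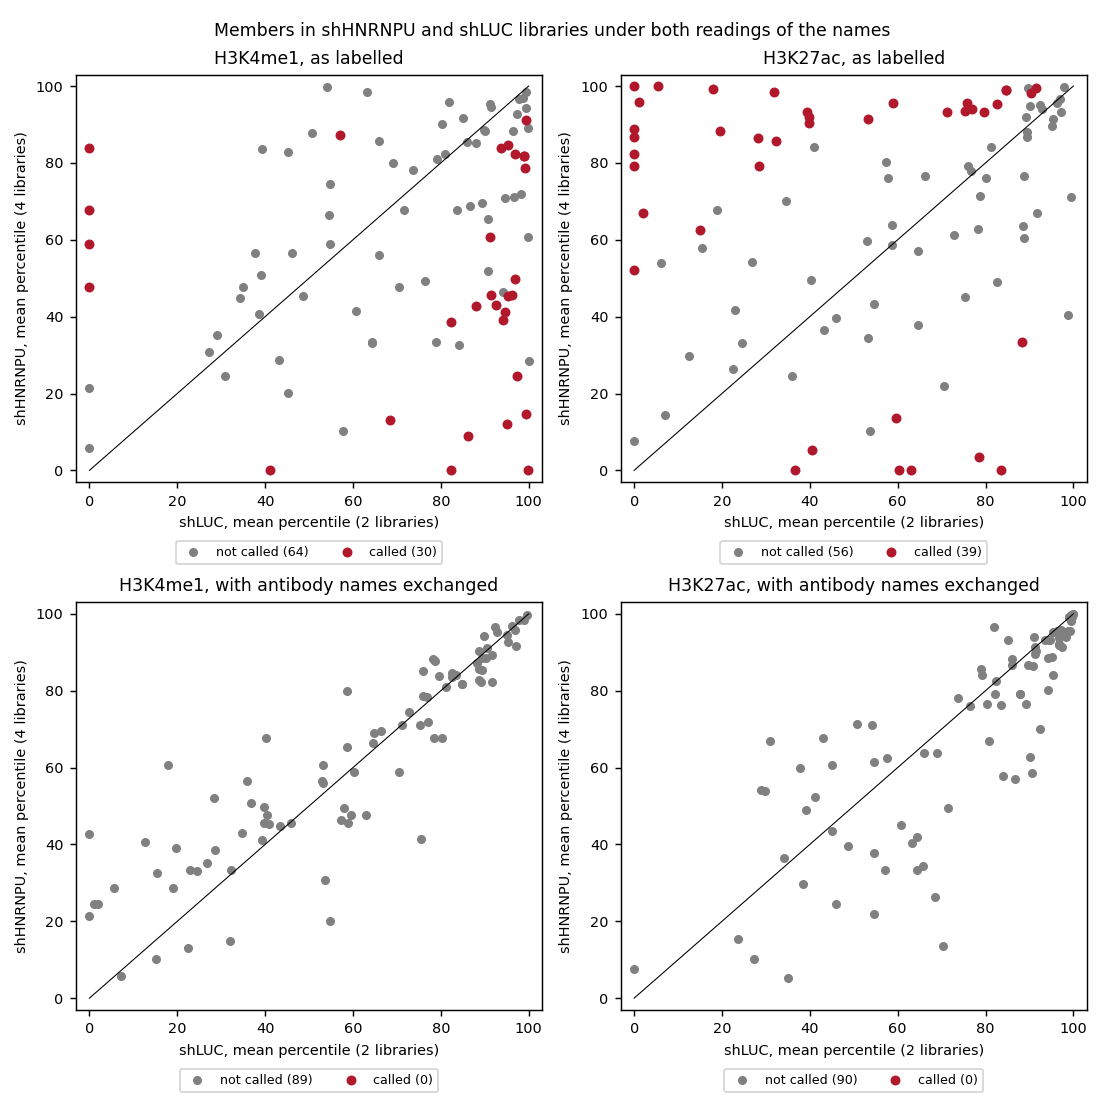
Mean percentile of members over the 4 shHNRNPU libraries (vertical axis) against the 2 shLUC libraries (horizontal axis), for H3K4me1 (left) and H3K27ac (right), as labelled (top) and with the antibody names exchanged (bottom); red points were called by limma. Calls number 30 and 39 in the top panels, with points at the corners, and 0 in both bottom panels, where points lie nearer the line of equal values.

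The joined comparison, which is free of the names, called 0 of 96 members and 0.0% of 17812 genes in limma, with 7 members and 1319 genes at an unadjusted p under 0.05. The other pathway genes and the regulators also had 0 calls in the exchanged and joined comparisons, with 1 to 5 at an unadjusted p under 0.05 in each. The median difference was -1.0 at members and -1.01 at all genes. Members at the top of the lists had narrow intervals, such as NDUFB1 at -0.55 to 0.55 and UQCRC1 at -0.42 to 0.92 points. These members lie at the upper end of the percentile scale, where values cannot rise further, so narrow intervals there do not show an unchanged mark. The complex II genes were less certain, with SDHC between -9.18 and 11.4, SDHB between -20.2 and 0.97, SDHA between -29.4 and 8.63 and SDHD between -25.5 and 57.4. COX4I2 ranged from -33.5 to 12.0 and COX4I1 from -40.1 to 49.9. The largest differences were NDUFAF1 at 34.1 ± 17.4 and NDUFB8 at 26.5 ± 11.8, and ATP5ME at -36.6 ± 18.6 and NDUFS8 at -22.7 ± 10.5 (SE, limma adjusted p 0.665 to 0.678). For members in the middle of the lists the intervals were thus wide, and differences inside them were not detectable with these libraries. Counts of 0 here do not show that nothing changed.

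The shRNAs were compared directly, as shHNRNPU#2 minus shHNRNPU#1. In H3K4me1 limma called 0 of 88 members and 0.0% of 16846 genes (6 members and 1469 genes unadjusted), and in H3K27ac 0 of 88 members and 0.0% of 14609 genes (13 members and 1874 genes unadjusted). With 2 repeats of each shRNA, these counts do not show that the shRNAs acted alike. The differences leaned towards shHNRNPU#2, with 74 of 88 members above 0 in H3K27ac and 78.7% of all genes, and these lists were also the longer ones. COX7B2 had H3K4me1 at 0 and 12.9 with shHNRNPU#1 and 83.3 and 69.2 with shHNRNPU#2, and UQCRFS1, the Rieske iron-sulfur protein, at 38.4 and 0 against 70.2 and 72.8. In the other direction UQCR10 differed by -35.5 ± 16.6 and COX4I2 by -20.3 ± 11.9 (SE, limma adjusted p 0.590 and 0.622). In H3K27ac, UQCR11 and NDUFS1 had no summit with shHNRNPU#1 and stood at 61.6 and 84.4 and at 76.1 and 61.4 with shHNRNPU#2. COX5B and NDUFA2 had the largest differences downwards, at -20.1 ± 30.8 and -17.0 ± 6.60 (SE, limma adjusted p 0.771 and 0.388).

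POLIIS2P allowed no test, since there was 1 shHNRNPU#1 library. A member was counted as moved when that library lay at least 10 percentile points outside both shLUC values. Of 95 members with a summit, 5 were higher and 10 lower, against a background of 18.1% of 15800 genes moved (7.49% higher, 10.6% lower), so members moved about as often as other genes. With the 20000 highest-scoring summits 18 of 78 members were higher and 6 lower (1899 and 1485 of 11574 genes), and with scores of at least 10, 17 of 73 were higher and 11 lower (1301 and 2030 of 11033 genes). The median difference was -0.25 points at members and -0.19 at all genes, and the shLUC repeats differed from each other by a median of 2.72 and 4.02 points. The largest falls were NDUFAF4, with no summit in the shHNRNPU#1 library against 79.1 and 60.6, COX7B, at 26.9 against 62.8 and 79.0, and COX7C, with no summit against 54.5 and 29.0. The largest rises were NDUFA8, an accessory subunit, at 89.3 against 72.0 and 26.8, COX4I2, at 30.1 against 2.2 and 0, and COX6C, at 69.9 against 52.8 and 32.6. In NDUFA8, COX7C and COX6C the shLUC repeats themselves lay more than 20 points apart. UQCRH, NDUFS6 and ATP5PB were lower by smaller amounts over close shLUC repeats, at 75.3 against 91.5 and 92.5, 70.6 against 86.2 and 86.9, and 76.3 against 91.0 and 89.8. The members with the highest POLIIS2P moved by under 1 point, with NDUFB10 at 99.2 against 99.5 in both shLUC repeats.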

How the data were processed

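CUT&Tag was performed on 17 libraries of H1 cells with 4 antibodies. The submitters' processing notes name cutadapt, Bowtie2, SAMtools, MACS2 and deepTools and the build hg38, without versions. The authors deposited 1 list of peak summits per library, and the score of each summit was taken as a −log10 q-value or p-value, with lowest values that correspond to 0.01 in the histone lists and 0.05 in the HNRNPU and POLIIS2P lists. The deposited series-wide HNRNPU list (48095 intervals of 400 bp) has 0 in every score field, and its positions served only as an alternative to the HNRNPU summits. No deposited read counts were used here, so depth and its precision are unknown. The antibody list in the labels' protocol names neither H3K4me1 nor POLIIS2P. The paper listed with the series describes mouse cells and supplied no methods.

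Summits were assigned to RefSeq genes (GRCh38.p14) with a margin of 1000 bp, and scores were turned into percentiles within each list (Python 3.11.15, pandas 2.3.3, scipy 1.17.1). Groups came from the sample titles. limma 3.58.1 (R 4.3.3) was fitted with empirical Bayes and a trend across all genes with a summit in at least 2 libraries of a comparison, each shRNA having its own mean, and p-values were adjusted by the Benjamini-Hochberg method over all genes tested. The fit was tested on simulated data for the exchanged H3K27ac comparison. It recovered the shifts when libraries varied little, but not at the spread of the real libraries. POLIIS2P had no test. Promoter sequences came from RefSeq (82 of 100 members matched). Named members were the complex II genes, the isoform and read-through pairs, the top 3 per antibody, members without a summit, up to 5 called members per direction (2 where none was called), the 3 largest POLIIS2P differences and the 3 largest gaps between HNRNPU and POLIIS2P. Other names (such as NDUFS3, NDUFV1, ATP5F1E, UQCRFS1 and the X-linked members) were chosen after their values were seen. Members, gene lists and motifs were chosen with earlier results of these data known. Alternatives were the 20000 highest-scoring summits, a score of at least 10, start windows, no filter, a log scale, a replicate block, single shRNAs and leaving out each library.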

Additional observations from a re-analysis of the deposited data

How the results depend on the processing

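With the names exchanged, in the joined comparison and between the shRNAs, 0 members were called by limma under every alternative run. As labelled, the H3K4me1 count of 30 (all genes 4847 higher and 2590 lower) became 46 on a log scale (all genes 5693 and 3746). It became 15 with shHNRNPU#2 alone (all genes 2979 and 1430). It ranged from 19 to 24 when single shHNRNPU libraries were left out. All genes then had 2869 to 3337 higher and 1432 to 2139 lower, so the counts of members and of all genes fell together. Leaving out a shLUC library leaves 1 control, and those splits are given above. The H3K27ac count of 39 ranged from 21 to 41, the lowest without the second shLUC repeat and 23 without the first. The count of 42 between the marks (34 higher, 8 lower) stayed between 31 and 50 in all its alternatives, but its direction changed with the cut. With scores of at least 10 it was 13 higher and 29 lower (all genes 916 and 8873). With the 20000 highest-scoring summits it was 46 and 2 (all genes 4007 and 1996). Without single libraries the count ranged from 31 to 48 (all genes 1993 to 2729 higher and 4510 to 7676 lower). The count of moved POLIIS2P members (15, all genes 1183 higher and 1678 lower) became 24 of 78 with the 20000 highest-scoring summits (all genes 1899 and 1485). It became 28 of 73 with scores of at least 10 (all genes 1301 and 2030) and 23 at 5 percentile points (all genes 1946 and 2611). Without the first or second shLUC repeat, which leaves 1 control, it was 31 and 25. All genes then had 2468 and 2646, or 2066 and 2969. With scores of at least 10, members with a summit in every library numbered 26 (HNRNPU), 52 (POLIIS2P), 38 (H3K4me1) and 24 (H3K27ac), beside 4227, 7855, 10020 and 2233 of 20037 genes. They were 56 (POLIIS2P) and 10 (H3K4me1) in the 20000 highest-scoring summits of each list, beside 8443 and 4519 genes. With the series-wide HNRNPU list 90 members had an interval, beside 15235 genes. The cuts by score and by rank keep fewer summits by construction. The series-wide list is longer, with 48095 intervals against 35526 and 34649 summits in the HNRNPU libraries.

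Libraries share repeat numbers, but differences between repeats correlated between the arms by -0.02 to 0.03 only, so the numbers do not pair them. With the number as a replicate block, 28, 36 and 40 members were called in H3K4me1 as labelled, H3K27ac as labelled and between the marks, and 0 elsewhere. All genes called in those 3 comparisons were 4692 higher and 2434 lower, 1912 and 3622, and 2572 and 6368. Read depth was unknown, and a rank within a list cannot show a change shared by all summits.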
